A study of Pinus pinaster with 4 samples.

Results

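In the needles of maritime pine (Pinus pinaster), 53 of the 17571 contigs with a deposited RNA-Seq level were expressed in both plants of one provenance and nearly silent in both plants of the other. Of these, 36 were expressed in Leiria only and 17 in Tamrabta only. A contig is a transcript sequence assembled from reads, and several contigs can come from 1 gene. The contigs were chosen by their deposited CPM (counts per 1000000, scaled by the authors for library composition). A Leiria-only contig had 1 CPM or more in both Leiria plants and 0.1 CPM or less in both Tamrabta plants, and a Tamrabta-only contig had the reverse. The rule took in 0.205% of the table as Leiria-only and 0.0968% as Tamrabta-only. Because these values made the choice, the difference between the provenances is described here for these contigs and not tested. "Silent" is used below for a level of 0.1 CPM or less and does not mean that a gene is absent. No sequences were at hand, so it was not tested whether contigs of one list and of the other are versions of the same gene. Whether reads of a silent contig were counted on another contig was not tested either.

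Leiria is a provenance of the Portuguese coast and Tamrabta one of the Atlas mountains in Morocco. Rooted cuttings of both, untreated apart from fertilized irrigation and pruning, were grown in pots in the same greenhouse in northern Spain, and adult needles of all plants were harvested at the same time on 1 day. The Leiria plants L6 and L7 and the Tamrabta plants T3 and T6 gave 1 library each. The provenances are kept in a clonal collection, and the sources used here do not say whether the plants of a provenance were of the same clone, so 2 plants may be a narrow sample of a provenance. The recovered counts were between 40019608 and 58835449 per library. The limit of 0.1 CPM then stood for at most 3 counts (L6), 5 counts (L7 and T3) or 4 counts (T6). With 0 counts in both plants, the upper limit of a level was 0.0314 CPM for Tamrabta and 0.0316 CPM for Leiria (3 counts over both plants, counting error only). In whole needles, fewer cells of a type and less RNA per cell cannot be told apart.

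Pine needles are the photosynthetic organs of the tree, and transcripts that serve photosynthesis are among their abundant ones. All 4 contigs of the table that the held descriptions assign to photosystems, light harvesting or oxygen evolution were abundant in every plant, with a lowest level of 89.0 CPM. Their summed level was 6821 CPM (L6) and 5100 CPM (L7) in the Leiria plants, and lower in the Tamrabta plants at 3912 CPM (T3) and 3003 CPM (T6). The held descriptions are those of the array rows with the smallest p-values, and the arrays included RNA of these plants. The difference between the provenances in these 4 contigs is therefore no independent result and does not stand for all photosynthesis transcripts. A set of contigs expressed in the plants of one provenance and silent in those of another is not a pathway or a family. Transcripts found in some populations of a plant species and not in others are known, among others for genes of defence.

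The Leiria-only contigs together reached 350.5 CPM in L6 and 333 CPM in L7. The Tamrabta plants had 0.376 CPM (T3) and 0.40 CPM (T6) of them. In counts this was 12750 and 19456 against 19 and 18. The Tamrabta-only contigs together reached 132 CPM (T3) and 117 CPM (T6), and the Leiria plants had 0.495 CPM (L6) and 0.256 CPM (L7) of them, or 6686 and 5243 counts against 18 and 15. Within each list, the summed level was thus similar in the plants that expressed it. The top contig of the Leiria-only list held 28.7% of its sum in L6 and 25.2% in L7, and the top 2 in each plant 45.3% and 37.9%. In the Tamrabta-only list the top contig of each plant held 17.9% (T3) and 22.7% (T6), and the top 2 33.9% and 32.8%.

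**Figure D1:**
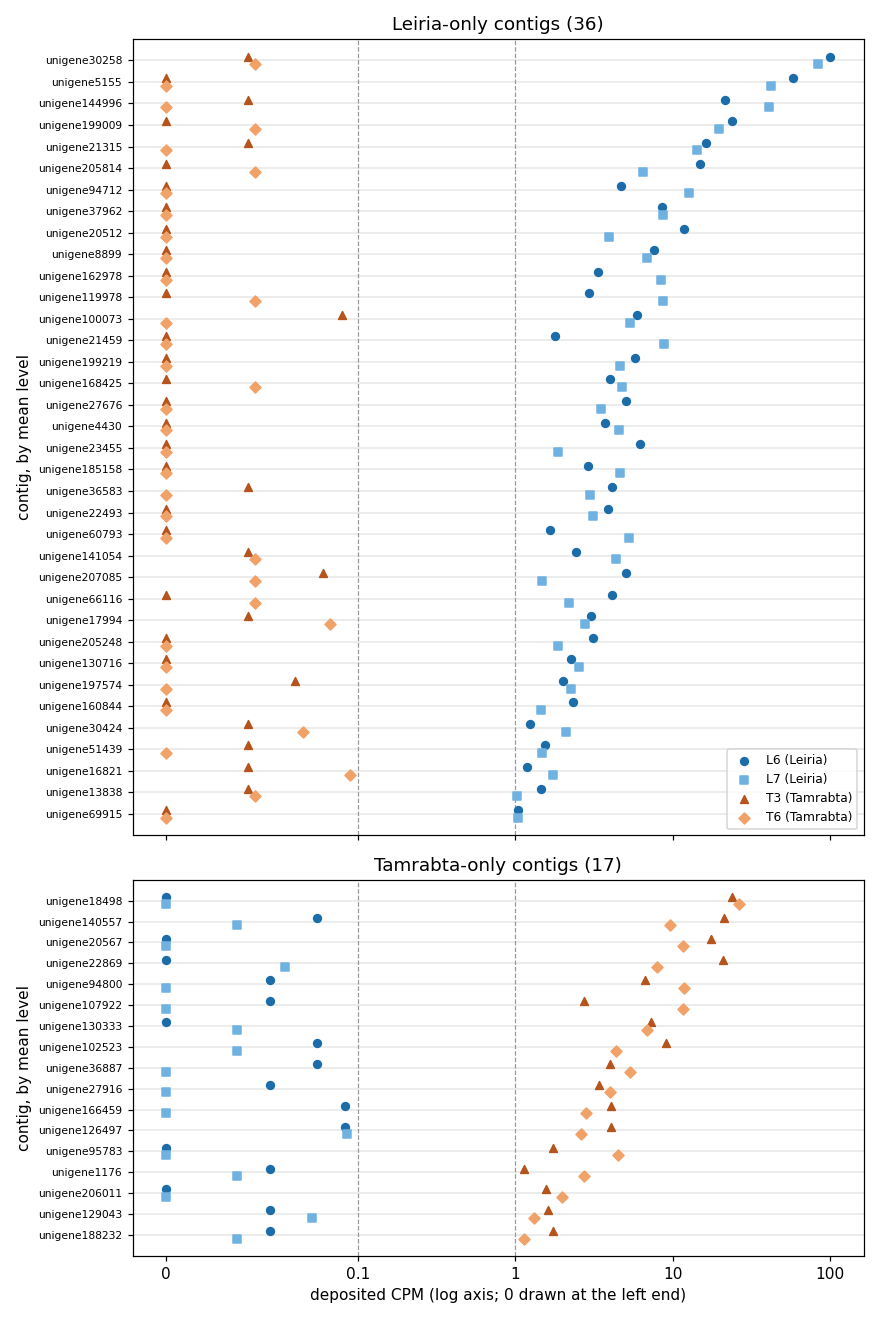
Deposited level of each contig in the 4 plants, on a log axis in CPM with 0 drawn at the left end. The upper panel shows the 36 Leiria-only contigs and the lower panel the 17 Tamrabta-only contigs, 1 row for each contig in order of mean level, with 1 symbol for each plant and dashed lines at the limits of 0.1 and 1 CPM. Most contigs lie between 2 and 10 CPM where expressed, and many symbols of the silent plants lie at 0.

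Among the Leiria-only contigs, sp_v3.0_unigene30258 had the highest level. It had 101 CPM in L6 and 84.0 CPM in L7 (mean 92.3 ± 11.8, SD, n = 2), and 1 count in T3 and 1 in T6. Pooled over the plants, its level was 4311 times higher in Leiria, with an exact 95% counting interval from 1193 to 35603. The next, sp_v3.0_unigene5155, had 58.2 CPM in L6 and 42.2 CPM in L7 (mean 50.2 ± 11.3, SD, n = 2) and 0 counts in both Tamrabta plants, and was at least 1539-fold higher in Leiria when 3 counts over both Tamrabta plants are taken as the limit. These were the 2 Leiria-only contigs at 50 CPM or more, and no Tamrabta-only contig reached that level. The files and descriptions used here give no name for either.

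The other 34 Leiria-only contigs had lower values. Of the 36, 4 had a mean of at least 10 CPM and under 50 CPM, 24 lay between 2 and 10 CPM, and 6 were under 2 CPM. Their median mean level was 4.08 CPM. For comparison, the median of all contigs was 11.6 CPM in Leiria, and 67.2% of the table lay at or above 4.08 CPM there. CPM is not divided by contig length, so an order of contigs by CPM is an order of reads and not of molecules.

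Among the Tamrabta-only contigs, sp_v3.0_unigene18498 had the highest level, at 23.7 CPM (T3) and 26.4 CPM (T6) (mean 25.1 ± 1.89, SD, n = 2). It had 0 counts in L6 and in L7, and was at least 791-fold higher in Tamrabta. Its description is given as unclassified. The second, sp_v3.0_unigene140557, was less even. It had 21.2 CPM in T3 and 9.60 CPM in T6 (mean 15.4 ± 8.19, SD, n = 2), with 2 counts in L6 and 1 in L7. The ratio of the pooled levels was 497, with an exact 95% counting interval from 169.8 to 2414, which does not cover the spread between plants.

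The Tamrabta-only list had a lower ceiling than the Leiria-only list and a similar middle. Of its 17 contigs, 4 had a mean of at least 10 CPM, 9 lay between 2 and 10 CPM, and 4 were under 2 CPM. The median mean level was 4.68 CPM, against a median of 10.9 CPM for all contigs in Tamrabta.

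**Figure D2:**
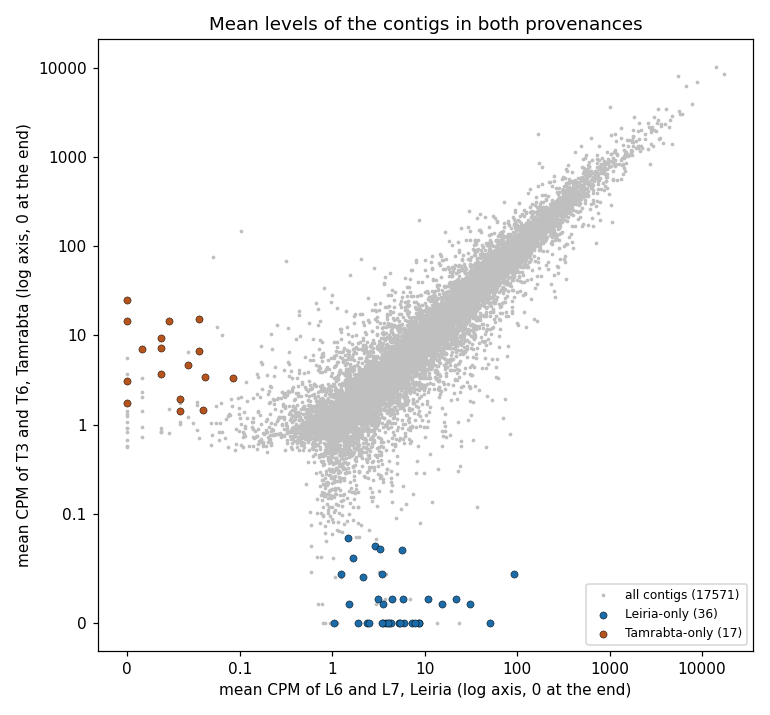
Mean CPM of T3 and T6 against mean CPM of L6 and L7 for the 17571 contigs, on log axes with 0 drawn at the lower and left ends. Blue points are the 36 Leiria-only contigs and orange points the 17 Tamrabta-only contigs; Leiria-only means reach 92.3 CPM and Tamrabta-only means 25.1 CPM.

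A named function was at hand for only 2 of the 53 contigs, both expressed in Tamrabta only. The first was sp_v3.0_unigene130333, described as holocarboxylase synthetase 1, with Arabidopsis locus AT1G37150. Holocarboxylase synthetase is the ligase that attaches the cofactor biotin to carboxylases, among them the acetyl-CoA carboxylase that starts fatty acid synthesis. The contig had 7.31 CPM in T3 and 6.85 CPM in T6 (mean 7.08 ± 0.328, SD, n = 2), 0 counts in L6 and 1 count in L7. Its 2 Tamrabta plants were nearly equal, while the gap to both Leiria plants is part of the rule.

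Holocarboxylase synthetase transcript as such was present in both provenances. Another contig of the table with the same description, sp_v3.0_unigene1579, assigned to AT2G25710, was at 35.0 CPM (L6) and 41.6 CPM (L7) in Leiria, and at 37.2 CPM (T3) and 40.4 CPM (T6) in Tamrabta. Its levels in the provenances overlapped, and it was more abundant in every plant than the Tamrabta-only contig was in Tamrabta, on the CPM scale and without regard to contig length. In Arabidopsis the AT2G25710 and AT1G37150 loci are known as the genes HCS1 and HCS2, so for sp_v3.0_unigene130333 the description and the locus name different genes, and which of them it is closer to was not tested. The silence of sp_v3.0_unigene130333 in Leiria was therefore that of 1 contig and not of every contig of this description. Whether reads of these contigs could be shared in mapping was not tested.

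The second named contig was sp_v3.0_unigene166459, described as a fragment of a metal tolerance protein, with Arabidopsis locus AT3G61940. Metal tolerance proteins are cation diffusion facilitators, which carry metals such as zinc or manganese out of the cytosol, often into the vacuole. It had 4.08 CPM in T3 and 2.80 CPM in T6 (mean 3.44 ± 0.905, SD, n = 2), 3 counts in L6 and 0 in L7. A relative, sp_v3.0_unigene10193, described as cation diffusion facilitator 8 with locus AT3G58060, was expressed in all plants. Its levels were 123 CPM (L6) and 109.6 CPM (L7) in Leiria and 165 CPM (T3) and 168 CPM (T6) in Tamrabta, higher in both Tamrabta plants than in both Leiria plants, but far from silent in either. Its description also came from the array rows with the smallest p-values, so this difference is no independent result.

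The remaining descriptions gave no function. In the Leiria-only list sp_v3.0_unigene100073 is an unassigned protein. It had 5.91 CPM in L6 and 5.35 CPM in L7 (mean 5.63 ± 0.396, SD, n = 2), with 4 counts in T3 and 0 in T6. The Leiria-only contigs sp_v3.0_unigene94712 and sp_v3.0_unigene168425 and the Tamrabta-only contigs sp_v3.0_unigene18498 and sp_v3.0_unigene20567 are unclassified. Of these, sp_v3.0_unigene94712 had 4.70 CPM in L6 and 12.7 CPM in L7, and sp_v3.0_unigene20567 had 17.6 CPM in T3 and 11.6 CPM in T6, both with 0 counts in the other provenance.

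For 46 of the 53 contigs no description was at hand. Descriptions came from the 1791 probe rows of the study's array that were held here, which cover 5.90% of the contigs of the table and 7 (13.2%) of the 53. Those rows are the ones with the smallest array p-values, and the arrays included RNA of the 4 sequenced plants, so a higher share among these contigs is no independent result. Of 13 classes of description, transcripts of defence (23 described contigs in the table), secondary metabolism and detoxification (26), transport (34), transcription and chromatin (69), signalling (60) and protein synthesis, folding and turnover (75) had 0 members in either list. The metal tolerance protein was not caught by the words of the transport class. With 7 described members, a class at 0 says little. No member was described from another organism. The 22 contigs whose descriptions hold the name of a microbe, animal or virus, some of them only as the name of a protein domain, summed to 526 CPM in each Leiria plant, 747 in T3 and 813 in T6, and their part in the lists was not tested. Their descriptions come from the same held rows, so this difference is no independent result either.

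The silent side was often empty. Of the 36 Leiria-only contigs, 18 (50%) had 0 counts in both Tamrabta plants, 14 had 1 to 3 counts over both plants, and 4 had more, with a highest sum of 5. Of the 17 Tamrabta-only contigs, 4 (23.5%) had 0 counts in both Leiria plants, 11 had 1 to 3 counts, and 2 had more, with a highest sum of 8. These counts were used by the rule, so the shares are a description.

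The largest silent sum belonged to the Tamrabta-only contig sp_v3.0_unigene126497, named here after its values were seen. It had 4.06 CPM in T3 and 2.62 CPM in T6, and 3 counts in L6 and 5 in L7. For the contigs at 0 counts, the expressing provenance was at least 33.2-fold to at least 1539-fold higher in Leiria-only contigs, and at least 55.7-fold to at least 791-fold higher in Tamrabta-only contigs. Where counts were present, the ratios ran from 29.0 to 4311 in the Leiria-only list and from 34.8 to 863 in the Tamrabta-only list.

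**Figure D3:**
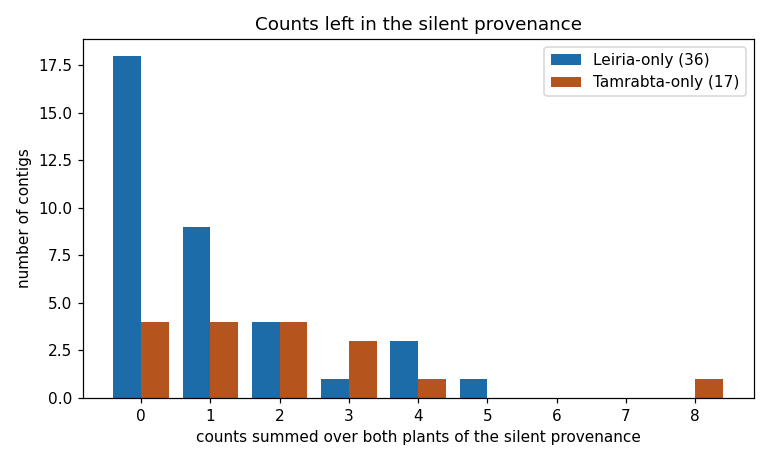
Number of contigs (vertical axis) by the counts summed over both plants of the silent provenance (horizontal axis), with blue bars for the 36 Leiria-only and orange bars for the 17 Tamrabta-only contigs. The bar at 0 counts holds 18 Leiria-only and 4 Tamrabta-only contigs, and the highest sums are 5 and 8.

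The plants of a provenance differed in how strongly they expressed these contigs. In the Leiria-only list the higher plant was above the lower by a median factor of 1.44, and in 9 of 36 contigs (25.0%) by more than 2-fold. L6 was the higher plant for 21 contigs and L7 for 15. In the Tamrabta-only list the median factor was 1.52, and 6 of 17 contigs (35.3%) were more than 2-fold apart. T3 was the higher plant for 9 contigs and T6 for 8, so in neither list was 1 plant always the higher.

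The least even Leiria-only contig was sp_v3.0_unigene21459, at 1.79 CPM (L6) and 8.86 CPM (L7), a factor of 4.96. The least even Tamrabta-only contig was sp_v3.0_unigene107922, at 2.73 CPM (T3) and 11.6 CPM (T6), a factor of 4.23. The most even was sp_v3.0_unigene69915, at 1.04 CPM in both Leiria plants. These 3 were picked out after their values were seen, and none of them has a name here.

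The same factors were taken over all contigs of similar level in the table, as a description. Of the 2874 contigs at 1 CPM or more in both Leiria plants whose Leiria mean lay between the quartiles of the Leiria-only list (2.79 to 7.40 CPM), 9.26% were more than 2-fold apart, with a median factor of 1.20. The 18 Leiria-only contigs in that range had 6 (33.3%) over 2-fold apart and a median factor of 1.52. In Tamrabta, 14.4% of 3141 such contigs (3.10 to 9.24 CPM) were over 2-fold apart, with a median factor of 1.28, against 3 of 9 Tamrabta-only contigs and a median factor of 1.55. The quartiles come from the lists themselves, so the shares are given side by side with no test. Over 3-fold apart were 5 of the 36 Leiria-only contigs (13.9%), against 1.74% of the contigs of the table over the whole range of levels of that list, and 1 of the 17 Tamrabta-only contigs (5.88%), against 4.24% for the range of that list. These whole ranges are not matched to the level of most members. Over them, 5.50% of the contigs of the table were over 2-fold apart in Leiria and 11.7% in Tamrabta, less than between the quartiles.

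**Figure D4:**
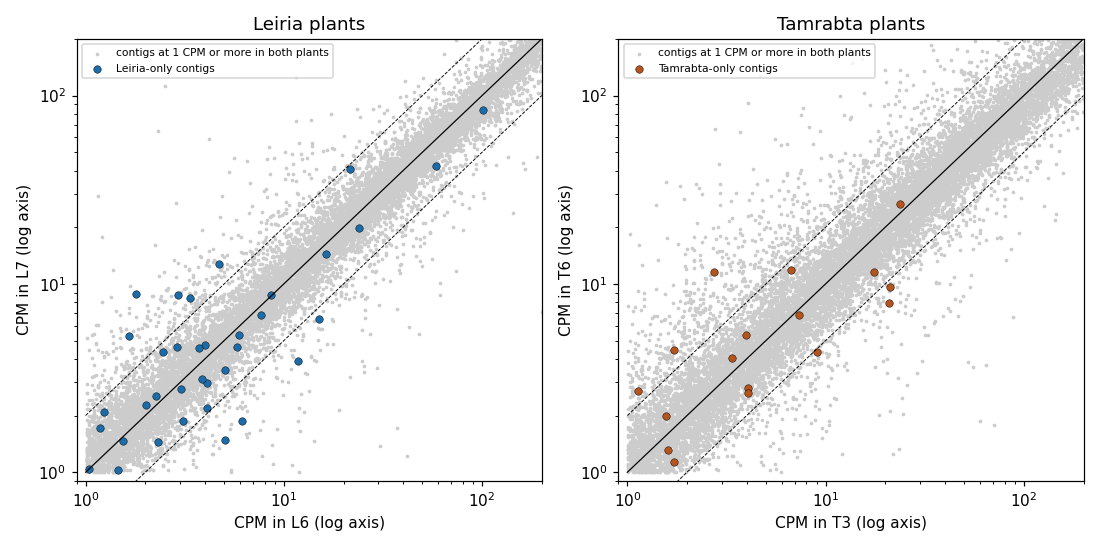
CPM of L7 against L6 (left) and of T6 against T3 (right), on log axes. Grey points are contigs at 1 CPM or more in both plants of the provenance and coloured points the Leiria-only and Tamrabta-only contigs; the solid line marks equal levels and the dashed lines a 2-fold difference, beyond which 9 Leiria-only and 6 Tamrabta-only contigs lie.

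Agreement between plants was also partial among contigs silent in the other provenance. At 0.1 CPM or less in both Tamrabta plants there were 73 contigs. The 36 Leiria-only contigs were 49.3% of them. In 20 more, 1 Leiria plant had 1 CPM or more and the other lay between 0.1 and 1 CPM, and in 17 the other Leiria plant was silent too. At 0.1 CPM or less in both Leiria plants there were 60 contigs, and the 17 Tamrabta-only contigs were 28.3% of them. In 23 more, 1 Tamrabta plant had 1 CPM or more and the other lay between the limits, in 19 the other was silent, and in 1 neither reached 1 CPM. Nearly every such contig had to reach about 1 CPM somewhere, because each row of the deposited table had over 1 CPM, taken before scaling, in at least 1 library. The script given with the study keeps contigs over 1 CPM in at least 2 libraries, and 996 of the 17571 deposited rows were not of that kind. Of the 73 contigs silent in Tamrabta 35 met that limit, and of the 60 silent in Leiria 18 did, among them 35 of the 36 Leiria-only and all 17 Tamrabta-only contigs. The shares of 49.3% and 28.3% thus rest on rows that this limit would remove.

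**Figure D5:**
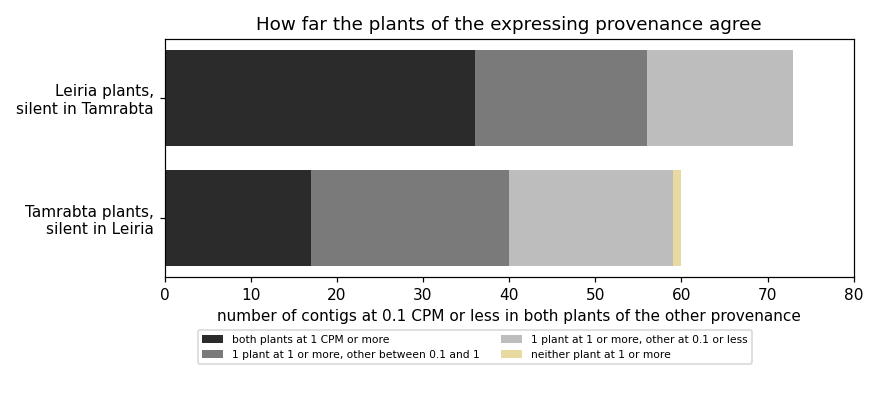
Contigs at 0.1 CPM or less in both plants of one provenance (73 silent in Tamrabta, 60 silent in Leiria), divided by the levels in the plants of the other provenance. The horizontal axis is the number of contigs; the darkest part of each bar is the 36 Leiria-only or 17 Tamrabta-only contigs, and the lighter parts are contigs reaching 1 CPM in fewer plants.

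Seen from the expressing side, the lists were small. Of 15623 contigs at 1 CPM or more in both Leiria plants, 0.230% were silent in both Tamrabta plants, and 71 more were silent in 1 of them. Of 15218 contigs at 1 CPM or more in both Tamrabta plants, 0.112% were silent in both Leiria plants, and 47 more in 1 of them. The size of each list depended on every plant. With the rule applied to 3 plants, the Leiria-only list had 53 contigs without L6, 56 without L7, 58 without T3 and 85 without T6. The Tamrabta-only list had 41 without L6, 40 without L7, 42 without T3 and 34 without T6. A rule over fewer plants can only take in as many contigs or more.

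At the limits of the rule, the lowest expressing value in the Leiria-only list was 1.03 CPM, in L7 for sp_v3.0_unigene13838, and the nearest contig outside, sp_v3.0_unigene59479, had 0.797 CPM in L6. In the Tamrabta-only list the lowest expressing value was 1.13 CPM, and the nearest contig outside, sp_v3.0_unigene30038, had 0.978 CPM in T6. On the silent side the highest values inside were 0.0889 CPM for Leiria-only and 0.0855 CPM for Tamrabta-only contigs, and the nearest outside were 0.111 and 0.103 CPM. The contig at 0.103 CPM was sp_v3.0_unigene29871, with 0 counts in L6, 6 in L7, 74.3 CPM in T3 and 75.2 CPM in T6. A further contig outside, sp_v3.0_unigene9004, picked out after its values were seen, had 5 counts in L6, 4 in L7, 136 CPM in T3 and 161 CPM in T6. Both had higher levels in Tamrabta than any Tamrabta-only contig, so the lower ceiling of that list rested on a few counts in the Leiria plants.

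The names of the contigs, which the rule did not use, were spread unevenly. Of the 36 Leiria-only contigs, 16 (44.4%) had an identifier starting with Contig and 6 (16.7%) with AllPine_a. A further 7 (19.4%) started with AllPine_b and 7 (19.4%) with another word. Of the 17 Tamrabta-only contigs, 6 (35.3%) started with Contig, 8 (47.1%) with AllPine_a, 2 (11.8%) with AllPine_b and 1 (5.88%) with another word. In the whole table the shares were 66.7% for Contig, 17.0% for AllPine_a, 3.44% for AllPine_b and 12.9% for other words. They changed with the level. Between the quartiles of the Leiria-only list they were 54.0%, 25.1%, 4.56% and 16.4%, in the same order. Between those of the Tamrabta-only list they were 56.4%, 24%, 3.92% and 15.7%. What the prefixes stand for is not known here, and the difference was not tested. No member had 1 of the 10 identifiers that stand on more than 1 row.

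In the comparison of the provenances over all contigs (limma on log2(CPM + 0.5), Benjamini-Hochberg adjusted p under 0.05 and a difference over 1 on that log2 scale), 9 of the 36 Leiria-only contigs were called as higher in Leiria, where 0.108% of all contigs were, and 3 of the 17 Tamrabta-only contigs as higher in Tamrabta, where 0.0455% of all contigs were. In both directions together limma called 0.154% of all contigs. On the recovered counts, the quasi-likelihood test of edgeR called 1 Leiria-only and 0 Tamrabta-only contigs, where it called 0.0114% of all contigs, 0.00569% in each direction. In that test all 36 and all 17 had an unadjusted p under 0.05, and so had 2500 of the 17571 contigs of the table. The exact test of edgeR called all 36 and all 17, where it called 5.99% of all contigs, 3.51% as higher in Leiria and 2.49% as higher in Tamrabta. DESeq2 also called all 36 and all 17, where it called 6.19% of all contigs, 3.6% as higher in Leiria and 2.6% as higher in Tamrabta. These tests used the values that chose the contigs, so nothing is read from these counts. The limma calls of both lists changed when 1 plant was left out. Such a fit has 1 plant in a provenance, which is assumed to vary like the others, so nothing is read from it either.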

How the data were processed

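The members and the description classes were chosen with earlier results of these data known. The authors trimmed the reads (SeqTrimNext), mapped them onto SustainPineDB contigs as concordant pairs (Bowtie2), counted per contig with a script of their platform (whether reads or pairs is not stated) and deposited 1 signal column for each library, TMM-scaled CPM from edgeR. Tool versions, strand use and the handling of pairs that match several contigs were not given in the sources used here. Similar contigs could therefore share counts. The CPM of 1 count was found in each column, and all 70284 values (100%) were whole multiples of it (tolerance 0.01 counts). L6 had 40019608 counts, L7 58835449, T3 49935290 and T6 40807468. Replicates differed by more than sampling noise (chi-square per degree of freedom 85.4 in Leiria, 184 in Tamrabta).

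All contigs were compared with limma 3.58.1 in R 4.3.3 (pseudocount 0.5, intensity trend). The fits were also run on simulated counts with the same noise setting for every contig, and nothing is read from that run. On the recovered counts the quasi-likelihood test of edgeR 4.0.16, its exact test and DESeq2 1.42.0 were alternatives, as were other pseudocounts (0.1, 1), a minimum of 5 for the mean CPM, a rescaling of every library to 1000000, the replicate number as a block and each library left out. The rule was tried with other limits. p-values set the difference between the provenances against the spread between these plants, estimated with help of all contigs. They do not cover the spread within a whole provenance. Intervals on ratios are exact, 95%, and cover counting error only. No sequence was at hand.

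Contigs were named where a held description (first 120 characters) was not unclassified, unknown, unnamed, uncharacterized, hypothetical or predicted, with the 2 others of each list with the highest mean. The contigs nearest to the limits of the rule were given by value. The other unclassified contigs and the contigs of the same or a related name as a named one were added after their values were seen, and so were those marked as such. On the whole table the quasi-likelihood test called 2 contigs, the exact test 1053 and DESeq2 1088.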

Additional observations from a re-analysis of the deposited data

How the results depend on the processing

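The number of Leiria-only contigs was 36 and became 18 with 0 counts required in both silent plants and 9 with 5 CPM required in the expressing plants. With 1 plant left out it lay between 53 and 85. It stayed within 1.5 times of 36 with 0.05 or 0.2 CPM as the silent limit, with 0.5 or 2 CPM as the expressing limit and after every library was rescaled to 1000000. That rescaling shifted the median log2 difference (Leiria minus Tamrabta) over all contigs from 0.011 to -0.13. The number of Tamrabta-only contigs was 17 and became 11 with a silent limit of 0.05 CPM, 4 with 0 counts, 26 with an expressing limit of 0.5 CPM and 6 with 5 CPM. With 1 plant left out it lay between 34 and 42.

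Limma called 27 contigs of the whole table, 17 with a pseudocount of 1 and 5 with a mean CPM of at least 5. That filter left 11218 contigs, of which 1564 had an unadjusted p under 0.05. The edgeR quasi-likelihood test called 2, its exact test 1053 and DESeq2 1088. In the quasi-likelihood test 2500 of the 17571 contigs had an unadjusted p under 0.05. Leaving out 1 plant gave between 0 and 32 calls, with between 1311 and 3505 contigs at an unadjusted p under 0.05. Of the Leiria-only contigs, limma called 9. The quasi-likelihood test called 1, the exact test 36 and DESeq2 36. Limma called 2 after the filter on mean CPM, which kept only the 6 of them with a mean of 10 CPM or more in Leiria. Of the Tamrabta-only contigs, limma called 3. The quasi-likelihood test called 0, with all 17 at an unadjusted p under 0.05, the exact test 17 and DESeq2 17. After the filter, which kept 4 of them in the same way, limma called 0, with all 4 at an unadjusted p under 0.05. The filter kept members of both lists only through the provenance where they are high. The rule used the same values, so nothing is read from the counts of members called or at an unadjusted p under 0.05.

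The labels give the plants of each provenance the replicate numbers 1 and 2. With the replicate number as a block, limma called 9 contigs of the table, 2 Leiria-only and 1 Tamrabta-only. The deviations of plants with the same replicate number (L6 with T3, L7 with T6) had a correlation of 0.20 across contigs. By the plant numbers in the titles, L6 would instead go with T6, and this correlation would have the opposite sign. Its sign thus depends on the numbering chosen, and nothing is read from it. No source says that a number marks a shared origin, so whether these plants share more than a number is not known.

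Depth limits what silence means. A count of 0 over both plants leaves room for levels up to 0.0314 CPM in Tamrabta and 0.0316 CPM in Leiria (3 counts).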

Other observations

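Some contigs were expressed in a single plant. With 1 CPM or more in that plant and 0.1 CPM or less in the other 3, there were 9 contigs of L6 and 8 of L7 among the Leiria plants, and 8 of T3 and 11 of T6 among the Tamrabta plants. Their levels ran from 1.35 to 47.0 CPM in L6 (median 7.39), from 1.11 to 7.49 CPM in L7 (median 5.86), from 1.13 to 3.49 CPM in T3 (median 2.36) and from 1.16 to 12.9 CPM in T6 (median 2.67). None of these 36 contigs had over 1 CPM before scaling in at least 2 libraries, the limit in the script given with the study. Patterns of expressed and silent contigs were thus found between plants of 1 provenance as well as between the plants of the provenances.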
